A study of Mus musculus with 15 samples.

Results

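The 76 mouse genes named Mrpl or Mrps followed by a number, most of which encode proteins of the mitochondrial ribosome, were measured on 15 microarrays of intestinal CD4 T cells. They were taken by name from the 34821 gene names on the array, leaving out names marked as pseudogenes, and each gene was read from its probe of highest mean signal. The set holds 47 genes named for the large subunit and 29 named for the small subunit, on 106 probes in all. Subunit counts, medians and correlations below follow these names. Mrps18a and Mrps30, whose products sit in the large subunit, are thus counted with the small one. The cells were CD4 T lymphocytes that a flow sorter had taken from the lamina propria, the connective tissue layer under the gut epithelium, of the small intestine of male mice. The groups, with 5 arrays each, were mice on normal chow (control), mice after 10 days on a high-fat diet, and mice after 30 days on it. The series describes the diet as a means to change the gut microbiota, and its title calls the fed mice prediabetic and diabetic. The labels name no strain, age, genotype or sampling day of the control mice. They do not say whether each of the 5 samples in a group stands for its own mouse, so a p-value here reflects sample-to-sample spread that may be technical. RNA was amplified from the sorted cells by a commercial procedure before labelling with the dye Cy3.

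Mitochondria carry their own ribosome, which translates the few proteins encoded by mitochondrial DNA, all of them subunits of the respiratory chain or ATP synthase. Its RNAs come from mitochondrial DNA, whereas all of its proteins are encoded in the nucleus, made in the cytosol and imported. Some of these proteins descend from bacterial ribosomal proteins and others were added during the evolution of mitochondria. Activated T cells are known to enlarge their mitochondria and to depend on mitochondrial translation for proliferation and effector function.

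Values are log2 of the processed signal of a spot minus the 75th percentile of that array, so 0 marks the array's upper quartile. A probe is called detected on an array where its spots were marked as well above background by the scanner software. The share of spots detected averaged 63.8% ± 12.0 (SD, n = 5) on control arrays. It was 58.5% ± 2.91 (SD, n = 5) on day 10 arrays, and day 30 arrays had 51.3% ± 5.48 (SD, n = 5). Control replicate 1 stood highest with 82.0% and day 30 replicate 3 lowest with 45.2%. In 2-sided exact permutation tests the share differed between day 10 and control with p = 0.421, between day 30 and control with p = 0.0556 and between the diet groups with p = 0.0397, which became 0.421, 0.0833 and 0.0833 after Benjamini-Hochberg adjustment over the 3 tests. Slide 1 held the 5 control arrays and day 10 replicates 1 to 3, and slide 2 held day 10 replicates 4 and 5 and the 5 day 30 arrays, so control and day 30 never shared a slide. All 8 CD4 T cell markers, Cd3d, Cd3e, Cd3g, Cd4, Cd2, Cd5, Lck and Thy1, were detected on 15 arrays. The B cell and plasma cell markers Ms4a1, Cd79a, Pax5 and Igj had a log2 summed level of -0.0021 to 2.34 on control arrays, 0.72 to 4.08 at day 10 and 1.83 to 4.74 at day 30, with 2 to 3 of the 4 markers detected on each array. Among these markers Ms4a1 was detected on 0 arrays. The mean log2 summed level of CD8 T and NK cell markers was 6.96 in control and 6.81 at day 30. Single day 10 arrays had 6.51 to 7.41. For the 8 CD4 T cell markers the means were 6.47 in control and 7.04 at day 30. Control means were 3.37 for macrophage and dendritic cell markers, 2.93 for stroma, 2.01 for epithelium and -2.42 for red blood cells. The B-lineage mean there was 0.93. Such sums do not give the share of a cell type. The part of RNA from B-lineage cells or these other cell types in the differences below was not tested.

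Most mitochondrial ribosome genes were detected in these T cells, and the mean count detected was lower at day 30 than in control, as was the share for the whole array. Of the 76 genes, 28 were detected on 15 arrays (16 large subunit, 12 small subunit), 35 on 10 to 14, 11 on 5 to 9 and 2 on fewer than 5. The 2 least detected were Mrpl14, a core protein of the large subunit, on 2 control, 2 day 10 and 0 day 30 arrays, and Mrpl38, a large subunit protein without a bacterial counterpart, on 1, 1 and 0. These 2 genes were not tested, and no fold is given for them because the control mean lay below the detection limit of the day 30 arrays. Control arrays detected 59 to 72 of the 76 genes, day 10 arrays 57 to 69 and day 30 arrays 52 to 67. Counted over genes and arrays, 86.3% of the possible detections were made in control, 80.8% at day 10 and 78.2% at day 30, beside 69.3%, 64.7% and 57.9% for all genes on the array. For the small subunit the percentage went from 91.7% in control to 81.4% at day 30, and for the large subunit from 83.0% to 76.2%. The difference between subunits was not tested.

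**Figure D1:**
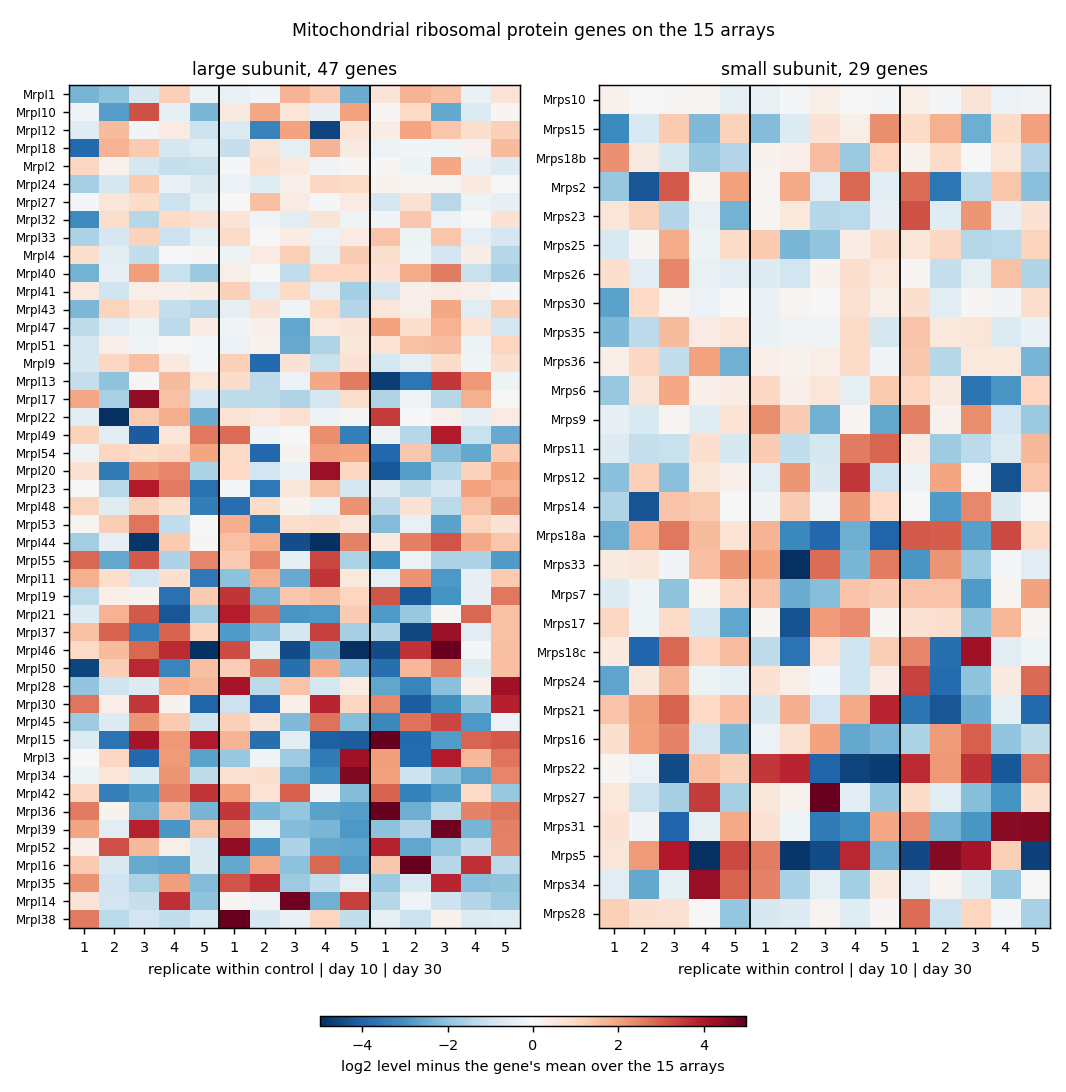
Levels of the 76 mitochondrial ribosomal protein genes (rows, the most often detected at the top) on the 15 arrays (columns, replicates 1 to 5 of control, day 10 and day 30, divided by vertical lines). Colour is the log2 level minus the gene's own mean over the 15 arrays, cut off at 5 above and below, and no array or group shows the same colour across all rows.

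Differences of the members from control ran in both directions in either diet group. At day 10, 44 of the 74 tested genes were higher than in control and 30 were lower, with a median log2 difference of 0.26, beside 49.9% of all 25996 tested genes higher and a median of -0.0016. At day 30, 41 were higher and 33 lower, with a median of 0.14, beside 50.3% higher and a median of 0.0049 for all tested genes. None of the 74 passed an adjusted p of 0.05 in either comparison, where limma with Benjamini-Hochberg adjustment called 0% of all tested genes. With the genes under the detection minimum included, the medians over 76 genes were 0.28 and 0.10. On slide 1 alone, the median for day 10 against control was 0.07, with 38 genes higher and 36 lower. With the array's detection share in the model, the day 30 median was -0.17, on the other side of 0.

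The large subunit genes had a median difference of 0.36 at day 10, with 30 of 45 higher, and the small subunit genes of -0.03, with 14 of 29 higher. At day 30 the medians were 0.08 and 0.18, so the order of the subunits was turned. Members numbered like a bacterial protein had a median of 0.48 at day 10 and 0.18 at day 30, and members with higher numbers, most of them found in mitochondria alone, of -0.03 and -0.07. Mrpl47 and Mrps24 have bacterial counterparts in spite of their numbers, and with these 2 moved the medians were 0.48 and 0.23 against -0.19 and -0.11. The differences between these classes carry no test. Fewer cells of a type and less RNA per cell cannot be told apart in such bulk samples.

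At an unadjusted p under 0.05, 1 gene was lower at day 10 than in control and 0 were higher, beside 1.7% and 0.889% of all tested genes. With 1 array left out, 0 to 3 were lower and 0 to 3 higher, with 0 lower without control replicate 3, control replicate 4 or day 10 replicate 2 and 3 higher without control replicate 3. The arrays of the 2 groups were fully separated for 0 members, beside 0.423%. The 1 gene was Mrps18a, a relative of bacterial S18 that is named for the small subunit although its product sits in the large subunit. Mrps18a levels were -2.11, 2.09, 2.99, 1.94 and 1.01 on control arrays, 2.06, -2.88, -3.57, -2.08 and -3.68 at day 10, and 3.39, 3.37, -2.37, 3.66 and 1.29 at day 30. In each group 1 array departed from the other 4: replicate 1 was low in control and high at day 10, and replicate 3 was low at day 30. The day 10 difference from control was -3.21 (SE 1.31, adjusted p = 1.00 in limma), and 4 of the 5 day 10 arrays lay under the mean of the controls. On slide 1 alone it was -2.65.

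The other 4 genes of smallest p at day 10 did not reach an unadjusted p of 0.05, and each had an adjusted p of 1.00 in limma. Mrpl17, a large subunit protein near the end of the exit tunnel in bacteria, had levels of 0.62, -2.94, 3.11, 0.13 and -2.16 in control and of -2.57, -2.58, -2.84, -2.20 and -0.42 at day 10, a difference of -1.87 (SE 1.01). It was -1.03 without control replicate 3, the highest control array, and -2.55 at the other end, without control replicate 2. All 5 day 10 arrays lay below the control mean, but 2 control arrays lay within or below their range. Mrpl15, a core protein of the large subunit, had a difference of -3.33 (SE 1.92) with control levels from -5.83 to 1.97 and day 10 levels from -6.27 to -0.42. Its second probe gave -1.94 and followed the brighter one with r = 0.28 over the 15 arrays. The brighter Mrpl15 probe was detected on 4 control, 2 day 10 and 3 day 30 arrays. With every value below an array's detection limit raised to that limit, its difference was -2.41. Mrps11, a protein of the small subunit platform, had a difference of 1.52 (SE 0.90), which was 0.30 on slide 1 alone. Its day 10 levels were -0.33, -2.84, -2.47, 1.01 and 1.32, and the higher ones of replicates 4 and 5 came from slide 2. Mrpl33, a small protein of the large subunit, was above the control mean on 5 of 5 day 10 arrays, with a difference of 0.84 (SE 0.55) that was 1.26 without control replicate 3. In the deposited value table the differences of the 5 members of smallest p in each of the 3 comparisons were smaller, with the same sign, for example -1.51 for Mrps18a at day 10.

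At day 30, 2 genes were lower than in control at an unadjusted p under 0.05 and 1 was higher, beside 2.67% and 2.47% of all tested genes. These counts moved with single arrays: 1 to 3 genes were lower and 0 to 6 higher when 1 array was left out, with 0 higher without control replicate 1 or day 30 replicate 1 and 6 higher without control replicate 3. The lowest p belonged to Mrps21, the mitochondrial relative of bacterial S21 in the small subunit, read from a probe at chr3:95666577-95666636 on the minus strand of build mm9. Mrps21 levels were -0.36, 0.33, 1.17, -0.80 and -0.27 on control arrays, -2.57, 0.02, -2.74, 0.12 and 2.02 at day 10, and -5.45, -6.05, -4.25, -2.24 and -5.67 at day 30. The 5 day 30 arrays lay below all 5 control arrays, as was the case in either direction for 0.615% of all tested genes and for no other tested member. Day 30 replicate 4 overlapped with the lower 2 of the day 10 arrays. The difference between day 30 and control was -4.75 (SE 0.94, adjusted p = 0.455 in limma), which ranked 7 by p among 25996 genes and did not pass the adjusted threshold.

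The Mrps21 probe was detected on 5 control, 5 day 10 and 1 day 30 arrays, the only member detected on all arrays of a group and on at most 1 of another. With every value below an array's detection limit raised to that limit, the difference from control was -3.22. The second Mrps21 probe was detected on 5, 4 and 1 arrays, followed the first with r = 0.90 over the 15 arrays, and differed from control by -3.26 at day 30 and by -0.50 at day 10. In the deposited value table the difference was -1.34, and with the slide as a block it was -7.58. Control and day 30 shared no slide, so the block joins them only through the day 10 arrays, 3 on slide 1 and 2 on slide 2. The Mrps21 slope on the detection share within groups was -0.01 (SE 0.57) per 10 percentage points, and with the share in the model the day 30 difference from control was -4.77.

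Mrpl55 and Mrpl47 were the other members at an unadjusted p under 0.05 for day 30 against control. Mrpl55, a large subunit protein without a bacterial counterpart, had levels of 1.66, -3.79, 1.83, -2.76 and 1.24 in control and of -4.25, -1.53, -2.76, -2.75 and -4.04 at day 30. The control arrays fell into 3 high and 2 low values, and the low ones lay within the day 30 range. The difference was -2.70 (SE 1.20, adjusted p = 0.927 in limma), and the probe was detected on 5, 5 and 2 arrays of the groups. Mrpl47, a large subunit protein related to bacterial L29, had levels of 0.52, 1.23, 1.53, 0.47 and 2.17 in control, 1.64, 2.03, -0.81, 2.26 and 2.44 at day 10 and 3.81, 2.61, 3.50, 2.49 and 0.91 at day 30. The day 30 difference was 1.48 (SE 0.66, adjusted p = 0.927 in limma), with 4 of 5 day 30 arrays above every control array. It was 0.08 with the slide as a block, a value again joined only through the day 10 arrays. The 3 other Mrpl47 probes gave 0.45, 0.08 and -0.01.

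Mrpl51 and Mrpl44 completed the 5 genes of smallest p. Mrpl51, a large subunit protein without a bacterial counterpart, had levels of 2.65, 3.80, 3.37, 3.54 and 3.44 in control, 3.25, 3.71, 1.04, 2.03 and 4.13 at day 10 and 4.22, 5.01, 5.11, 3.29 and 4.61 at day 30. Day 30 replicate 4 was the 1 day 30 array within the control range. The day 30 difference from control was 1.09 (SE 0.53, adjusted p = 0.927 in limma). It was 0.68 with the slide as a block, joined only through the day 10 arrays, and 0.21 in the deposited value table. Mrpl44, a large subunit protein with a fold related to RNase III, had control levels from -5.93 to 0.26, day 10 levels from -6.19 to 1.42 and day 30 levels from -0.58 to 2.10. It was detected on 4, 3 and 5 arrays, and all 5 day 30 arrays lay above the control mean. The difference from control was 3.02 (SE 1.48, adjusted p = 0.927 in limma).

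**Figure D2:**
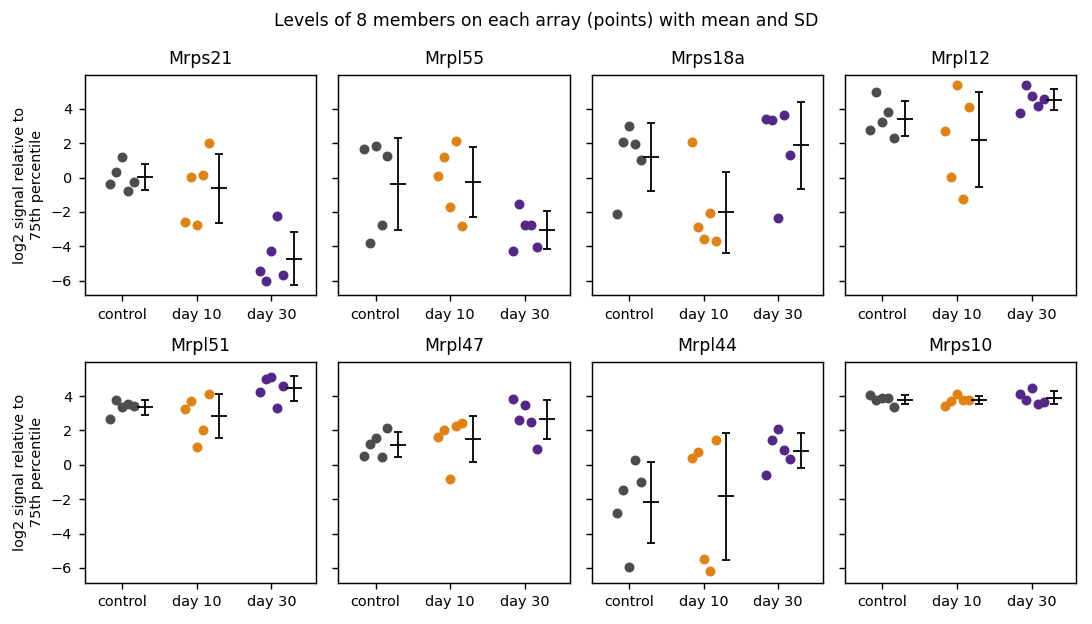
Log2 signal relative to the array's 75th percentile for 8 members in control, day 10 and day 30 arrays. Points are single arrays, and the bar beside them is the mean with its SD (n = 5). The Mrps21 day 30 arrays sit between -6.05 and -2.24, below all 5 control arrays, and the Mrps10 arrays sit between 3.36 and 4.45 in all groups.

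Day 30 was also set against day 10, a comparison that shares its arrays with both comparisons above. The median over the 74 tested members was 0.12, with 41 higher and 33 lower, beside 53.1% higher and a median of 0.06 for all tested genes. No member passed an adjusted p of 0.05, where limma called 0% of all tested genes. At an unadjusted p under 0.05, 3 members were higher and 2 lower, beside 1.82% and 2.29% of all tested genes. With 1 array left out, 2 to 6 were higher and 1 to 3 lower, with 6 higher without day 30 replicate 2. The arrays of the 2 groups were fully separated for 0 members, beside 0.581%. Mrps21 had the smallest p of the set, with a difference of -4.10 (SE 0.94, adjusted p = 0.679 in limma) and a value of -2.57 with dim values raised to the detection limit. On slide 2 alone it was -5.80, and the 5 day 30 arrays lay below both day 10 arrays there. Mrpl55 differed by -2.83 (SE 1.20, adjusted p = 0.999 in limma).

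Higher at day 30 than at day 10 were Mrpl51 with 1.61 (SE 0.53), Mrps18a with 3.90 (SE 1.31) and Mrpl12 with 2.34 (SE 0.98), each with an adjusted p of 0.999 in limma. Mrpl12 belongs to the stalk of the large subunit that recruits translation factors. Its levels were 2.79, 4.96, 3.26, 3.80 and 2.32 in control, 2.69, 0.06, 5.41, -1.24 and 4.09 at day 10 and 3.77, 5.37, 4.78, 4.19 and 4.58 at day 30. Replicates 2 and 4 of day 10 stood below all other arrays, while replicate 3 of day 10 was the highest of the 15. The difference was 1.48 without day 10 replicate 4. On slide 2 alone the differences were 1.37 for Mrpl51, 4.75 for Mrps18a and 3.12 for Mrpl12, with 5 arrays of day 30 and 2 of day 10.

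**Figure D3:**
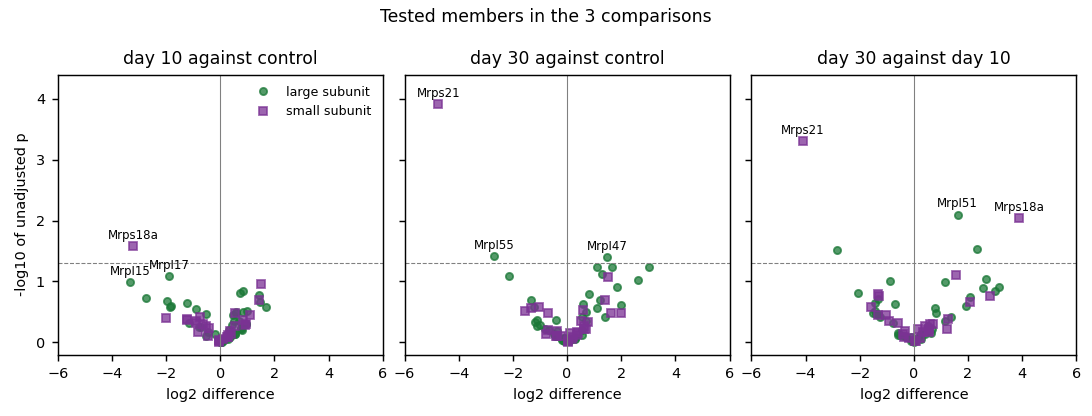
Log2 difference (horizontal) against -log10 of the unadjusted limma p (vertical) for the 74 tested members in the 3 comparisons, with large subunit genes as circles and small subunit genes as squares. The dashed line marks an unadjusted p of 0.05, and the 3 genes of smallest p are named. Mrps21 stands apart on the lower side in both comparisons with day 30.

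Promoters were read for the members because nuclear genes for mitochondrial proteins are known targets of NRF-1, of the ETS factor GABP (also called NRF-2) and of YY1. RefSeq windows on build GRCm38.p6, from 250 bases before to 50 bases after a gene's start, were at hand for 67 of the 76 genes. Exact matches on either strand were counted for GCGCA and GCGC with 1 base between them (NRF-1), CCGGAAG (ETS) and AANATGGCG (YY1). Matches, whether of the same motif or of different motifs, overlapped in 1 of 73 windows. The NRF-1 letters stood in the windows of 12 members (17.9%) against 5.19% of the 27025 genes in the table. The ETS letters stood in 24 (35.8%) against 9.93%, and the YY1 letters in 10 (14.9%) against 2.76%. At least 1 of the 3 motifs was found for 40 members (59.7%) against 15.9% of all genes. Letters that match are a description and show no binding.

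Shown are the 150 bases before the start of 3 members with an NRF-1 match and of 2 with an ETS match, 5′ to 3′ on the gene's strand with the match in capitals, because these 5 genes are among those described above and differed in direction and size. The windows lie at chr3:95871515-95871664 (minus strand) for Mrps21, chr11:120484487-120484636 for Mrpl12, chr1:79775868-79776017 for Mrpl44, chr6:125192050-125192199 for Mrpl51 and chr17:46110854-46111003 for Mrps18a, all but the first on the plus strand.
Mrps21: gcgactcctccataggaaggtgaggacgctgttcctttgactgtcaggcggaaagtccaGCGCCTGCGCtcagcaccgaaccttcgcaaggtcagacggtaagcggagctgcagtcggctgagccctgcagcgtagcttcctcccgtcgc
Mrpl12: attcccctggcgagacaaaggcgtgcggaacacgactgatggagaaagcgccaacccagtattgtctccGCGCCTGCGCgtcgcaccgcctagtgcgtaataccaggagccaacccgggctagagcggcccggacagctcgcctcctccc
Mrpl44: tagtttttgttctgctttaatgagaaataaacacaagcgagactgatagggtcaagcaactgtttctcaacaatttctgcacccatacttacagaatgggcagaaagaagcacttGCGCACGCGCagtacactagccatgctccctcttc
Mrpl51: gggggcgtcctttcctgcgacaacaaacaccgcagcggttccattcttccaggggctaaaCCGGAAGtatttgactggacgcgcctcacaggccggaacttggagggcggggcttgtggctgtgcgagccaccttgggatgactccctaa
Mrps18a: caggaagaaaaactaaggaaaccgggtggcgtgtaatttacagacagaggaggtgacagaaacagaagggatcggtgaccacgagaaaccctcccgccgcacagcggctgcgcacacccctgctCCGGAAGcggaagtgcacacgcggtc

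The NRF-1 match begins 91 bases before the start in Mrps21, 81 in Mrpl12 and 35 in Mrpl44. The ETS match begins 90 bases before the start in Mrpl51 and 26 in Mrps18a. The 300-base windows hold 2 further matches, of the ETS letters in Mrps21 and of the YY1 letters in Mrps18a, neither of them within the bases shown. The 3 genes shown with an NRF-1 match had differences of -4.75, 1.11 and 3.02 between day 30 and control. These genes were picked because they differed, so the values do not describe the NRF-1 members as a set. Over the 15 arrays the mean pairwise Pearson correlation was -0.0007 among the 11 tested NRF-1 members, 0.01 among the 24 ETS members and 0.01 among the 10 YY1 members.

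Levels of different mitochondrial ribosome genes showed little shared variation over the 15 arrays. The mean pairwise Pearson correlation was 0.018 among the 74 tested members, the same as the 0.018 over all tested genes. It was 0.066 among the 28 members detected on 15 arrays, beside 0.058 for all genes so detected. Within the large subunit it was 0.017 and within the small subunit 0.017. Of the 2701 pairs of members, 123 (4.55%) had a correlation above 0.5, and the values ran from -0.81 to 0.89. The 78 tested genes for cytosolic ribosomal proteins, which build the ribosome of the cytosol, had a mean of 0.64 on the same arrays, and 2202 of their 3003 pairs (73.3%) lay above 0.5. After group means and the detection share were removed, the means were 0.016 for the mitochondrial and 0.35 for the cytosolic set. All of these pairs share the same 15 libraries and their scaling, and the difference between the sets carries no test. Even probes of the same member correlated by a median r of only 0.36. The part of measurement spread in the low correlation between members was not tested.

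**Figure D4:**
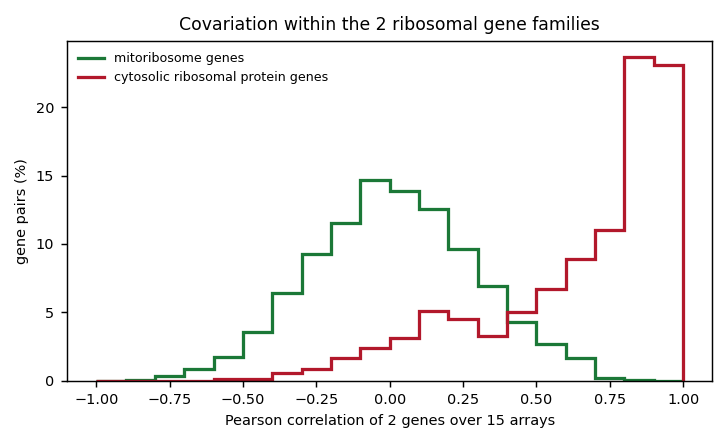
Share of gene pairs (vertical, %) by the Pearson correlation of their log2 levels over the 15 arrays (horizontal, bins of 0.1). Pairs of mitochondrial ribosomal protein genes centre near 0 with a median of 0.008, and pairs of cytosolic ribosomal protein genes peak above 0.8 with a median of 0.78.

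Replicates of a group differed widely for most members. The within-group SD had a median of 1.98 on the log2 scale over the 74 tested members, beside 1.38 for all tested genes and 0.61 for the cytosolic ribosomal protein genes. For the 28 members detected on 15 arrays it was 1.26, beside 0.88 for all genes so detected. The smallest SD, 0.30, was that of Mrps10, a protein of the small subunit head. It and the next genes were picked for their spread after the values were seen. The control mean of Mrps10 was 3.80 ± 0.26 (SD, n = 5). The day 10 mean was 3.77 ± 0.24 (SD, n = 5), the day 30 mean 3.90 ± 0.37 (SD, n = 5), and the groups overlapped throughout. Mrpl27, Mrpl24, Mrpl41 and Mrpl4, all of the large subunit, came next with 0.75, 0.77, 0.84 and 0.84. The widest spread belonged to Mrps5, a core protein of the small subunit, with an SD of 4.10.

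Several members could be read from more than 1 probe, which gives a check within the same arrays. Of 27 such genes, 25 had another probe that was detected on at least 5 arrays. These 28 other probes correlated with the brightest probe of the same gene by a median r of 0.36, from -0.63 to 0.98. Against control, the sign of the difference was the same for 16 of the 28 at day 10 and for 22 at day 30, and between the diet groups for 18.

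Arrays that detected more spots also detected more of the 76 members. Both measures are counted from the same detection marks, and the members' spots are part of the share, so part of the relation is built in. The Pearson correlation between the 2 measures was 0.70 and Spearman's rho 0.59 over the 15 arrays, 0.73 and 0.46 (Pearson) within slides 1 and 2, and 0.41 without control replicate 1 and day 30 replicate 3, the arrays farthest from the median share. The levels did not follow in the same way for all members. The median level over all 76 members had a correlation of -0.35 with the share. The median over the 28 members detected on 15 arrays had one of -0.88. The correlations were -0.87 for all genes so detected and 0.87 for all tested genes. These values share the scaling to the 75th percentile and are given as a description.

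In a model with the group means, 43 of the 74 members were lower and 31 higher on arrays with a larger share, with a median slope of -0.09 per 10 percentage points, beside 0.16 for all tested genes. Past an adjusted p of 0.05 in limma were 1 member that fell with the share and 0 that rose, beside 7.49% and 1.49% of all tested genes and 8.98% in both directions. At an unadjusted p under 0.05, 7 members had slopes below 0 and 1 above, beside 12.3% and 9.85% of all tested genes. With 1 array left out these counts were 3 to 9 and 1 to 3, with 3 below 0 without control replicate 3, and with the percentile taken over probes detected on 15 arrays they were 1 and 8. The 1 member past the adjusted threshold was Mrps35, a small subunit protein found in mitochondria, with a slope of -1.17 (SE 0.24, adjusted p = 0.00482 in limma). Its levels were 0.04, 0.96, 3.86, 2.71 and 2.88 on control arrays, 1.94, 2.10, 2.12, 3.23 and 1.48 at day 10 and 3.70, 2.81, 2.88, 1.60 and 1.96 at day 30. The lowest level came from control replicate 1, the array with the largest share. Without that array no member passed the threshold, although the slope of Mrps35 stayed between -1.22 and -1.08 whichever array was left out.

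The next 3 members by p had slopes of -0.80 for Mrps30 (adjusted p = 0.0548), -0.76 for Mrpl33 (adjusted p = 0.0854) and -0.62 for Mrpl24 (adjusted p = 0.111), all in limma. Mrps30 is named for the small subunit, but its product sits in the large one, and Mrpl24 is a core protein of the large subunit. Mrps30 had a level of 0.42 on control replicate 1 and of 2.54 to 4.09 on the other 14 arrays. The slope of Mrps30 ranged from -0.97 to -0.18 over the fits that left out 1 array, with the weakest value without control replicate 1. Without control replicate 3 the slope of Mrpl24 was -0.33 and that of Mrpl33 -0.53. In the deposited value table both lay on the other side of 0, at 0.050 and 0.020, as did Mrpl24 within slide 2, at 0.21.

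**Figure D5:**
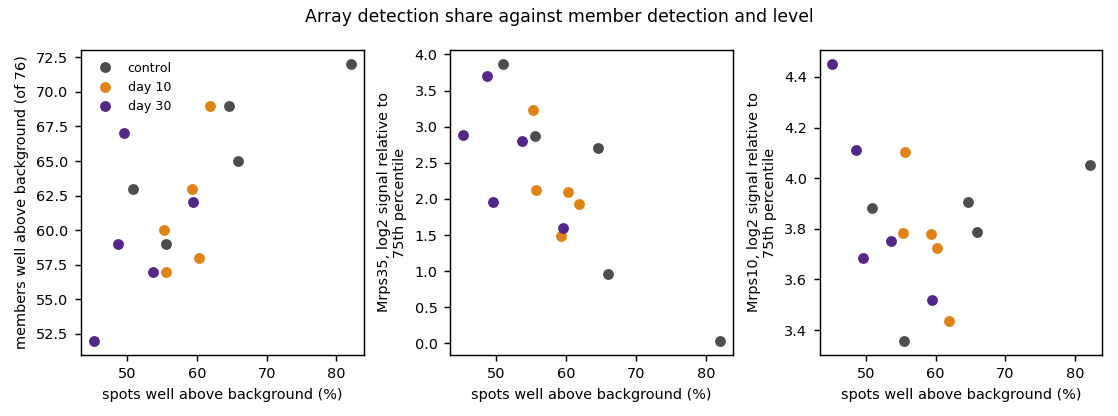
Percent of spots well above background on each array (horizontal) against the number of the 76 members detected (left), the log2 level of Mrps35 (middle) and the log2 level of Mrps10 (right), 1 point per array. The array with the largest share, 82.0%, detected the most members, 72, and had the lowest Mrps35 level, 0.04, while the Mrps10 levels lie between 3.36 and 4.45.

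Other genes of mitochondrial translation gave no call either, with 0 of the genes in each of the following lists past an adjusted p of 0.05 in limma in either comparison with control. Their counts at an unadjusted p under 0.05 stand beside 1.7% of all tested genes lower and 0.889% higher at day 10, and 2.67% lower and 2.47% higher at day 30. The 6 mitochondrial ribosome proteins that go by other names had 3 genes higher and 3 lower than control at either time, 0 of them at an unadjusted p under 0.05. Aurkaip1, a small subunit protein, had the smallest p at both times, with differences of 0.69 (SE 0.38) at day 10 and 0.51 (SE 0.38) at day 30. Of 15 tested translation factors, 2 were lower and 0 higher at day 10 at an unadjusted p under 0.05, and 1 lower and 0 higher at day 30. Taco1, an activator of the translation of cytochrome c oxidase subunit I, was detected on 5 control, 0 day 10 and 2 day 30 arrays. Its day 10 level, not well above background, was at least 7.44-fold lower than control (adjusted p = 0.969 in limma), a bound set by the detection limits of the day 10 arrays. Mtif3, an initiation factor detected on 11 arrays, differed by -2.88 (SE 1.14, adjusted p = 0.927 in limma) at day 30.

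Of 17 tested assembly and ribosomal RNA factors, 1 was lower at day 10 and 1 higher at day 30 at an unadjusted p under 0.05. These were Mrm1, a methyltransferase of the large ribosomal RNA, with -3.40 (SE 1.46) and detection on 5 control but 1 day 10 array, and Mterf4, a large subunit assembly factor that the array names Mterfd2, with 1.59 (SE 0.69). Of 14 aminoacyl-tRNA synthetases of mitochondria, 1 was higher at each time, Sars2 with 2.36 (SE 0.89) at day 10 and Wars2 with 2.38 (SE 1.02) at day 30, detected on 9 and 10 arrays. None of 8 genes of mitochondrial transcription and DNA reached an unadjusted p of 0.05 against control. The smallest p there belonged to Polg2, the accessory subunit of the mitochondrial DNA polymerase, with -2.94 (SE 1.50) at day 10, and to Twnk, the mitochondrial helicase, named Peo1 on the array, at day 30. Twnk was detected on 3 control and 0 day 30 arrays, and was at least 2.83-fold lower than control at day 30 (adjusted p = 0.927 in limma). Of 9 regulators of mitochondrial biogenesis, 1 was lower and 0 higher at day 10 at an unadjusted p under 0.05, and 1 lower and 2 higher at day 30. Myc differed by -2.81 (SE 1.28) at day 10. Gabpa, the DNA-binding subunit of the ETS factor GABP, differed by -2.17 at day 30 (SE 0.78, adjusted p = 0.927 in limma). The 2 higher genes, named after their values were seen, were the coactivators Ppargc1a (PGC-1 alpha), with 2.76 (SE 1.10) and detection on 7 of 15 arrays, and Pprc1, with 2.03 (SE 0.77) and detection on 15.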

How the data were processed

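Images of the 15 one-colour arrays were read by Agilent Feature Extraction (version 10.7.3.1, extraction protocol GE1_107_Sep09, grid annotated with mm9), per the file headers. The headers also show that the processed intensity of a spot, as deposited by the authors, had its background subtracted and was left without scaling from array to array. The authors' deposited log2 table, whose normalization is not given in the sources used here, served as an alternative. Control spots, outlier spots (46 probe values missing) and 1 damaged spot line were left out, and 0 spots were saturated. Spots of a probe were averaged, log2 was taken and the array's 75th percentile subtracted. Genes detected on at least 5 arrays were tested (25996) with limma 3.58.1 in R 4.3.3 (lmFit, eBayes with trend, group means of all 15 arrays, 2-sided), with Benjamini-Hochberg adjustment over all of them, checked on simulated data. The closest 2 arrays differed by a median of 0.80 (log2) and the median pair by 1.07, so none was counted as a repeat. Alternatives were other normalizations (quantile, normexp), filters and probe rules, the deposited table, slide or replicate blocks, the detection share as a covariate and each array left out. The precision is limited by the number of arrays. Symbols were those of the array, and 75 of 76 member accessions matched RefSeq genes of the same symbol. Same-numbered arrays of different groups had correlations of -0.13 to 0.15, so the numbers were not taken as pairs. The text names the 5 members of smallest p per comparison, 4 for the share, members detected on all arrays of a group and at most 1 of another, and 1 gene per other list and comparison with control. Members and lists were chosen with earlier results of these data known. A further B cell marker is not reported here.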

Additional observations from a re-analysis of the deposited data

Results flagged for a closer look

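Groups of 5 arrays were checked for the members named above for their small p. The detection share, the count of members detected and the median member level were checked as well. In 4 of these 51 groups, all 4 for members, 1 array lay far from the others. Its gap to its neighbour was above 0.71 of the group's range (Dixon's 95% limit), which chance gives in about 1 in 20 groups. Mrps18a had a level of 2.06 on day 10 replicate 1, and the nearest of the other day 10 arrays had -2.08. Mrpl17 had -0.42 on day 10 replicate 5, against -2.20 for the nearest. Mrps11 had -0.77 on control replicate 4, against -2.23. Mrpl47 had -0.81 on day 10 replicate 3, against 1.64. The 4 values came from 4 different arrays.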

How the results depend on the processing

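The count of members past an adjusted p of 0.05 was 0 in each of the 3 group comparisons under all 30 alternatives (smallest member adjusted p 0.201, limma), and the median over members ranged from -0.08 to 0.46, -0.32 to 0.56 and -0.30 to 0.36 for day 10 against control, day 30 against control and day 30 against day 10. The count of members whose level followed the detection share, 1 in the report, was 4 with the percentile taken over probes detected on 15 arrays, 4 without group means, 3 with genes detected on 15 arrays alone, 3 in the deposited value table and 3 within slide 1. It was 0 within slide 2 and 0 without control replicate 1 and day 30 replicate 3, the 2 arrays farthest from the median share, a pair also left out of the group comparisons after seeing the data. Leaving out 1 array gave 0 to 4. Control replicates 1 and 2, left out singly, gave 0 and 3, and day 30 replicates 3 and 5 gave 4 and 2. Over all genes tested in a setting, the count moved as well. It was 2334 in the report, 0 to 4074 under the alternatives and 7 to 2478 with 1 array left out. The cause was not tested. Slopes turned for Mrpl33 (0.020) and Mrpl24 (0.050) in the deposited table and for Mrpl24 within slide 2 (0.21). With the replicate number as a block, the counts were 0, 0, 0 and 1 and changed no call; 1 of 15 same-numbered pairs correlated above 0.1 and 3 of 15 arrays lay closest to their own number. Mrps21 at day 30 against control ranged from -7.58 to -1.34 (unadjusted p 3.03e-05 to 0.153) over 29 alternatives, and from -5.37 to -4.42 when 1 array was left out. The -7.58 came from the slide block, which joins control and day 30 only through the day 10 arrays. Signals near background limit the dim members, since their values below the detection limit have no order.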
